A study of Mus musculus with 27 samples.

Results

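The genes described here encode the β subunits of the sodium pump (Atp1b1, Atp1b2 and Atp1b3) and members of the HCN family of ion channels (Hcn2, Hcn3 and Hcn4). They were chosen by name, with earlier results of these data known. They are the entries of the mouse retina table whose symbol equals 1 of these 6, out of 38168 features listed. Each symbol had a single entry, and all 6 genes passed the filter on low values (at least 1 CPM in at least 3 libraries). Expression was measured in whole retinas of wild type C57BL/6J mice, an inbred laboratory strain, at 7 ages in 27 libraries. The embryonic days were E14 (3 libraries) and E17 (3), and the postnatal days P1 (4), P6 (3), P15 (4), P28 (4) and P60 (6). The labels name no drug or other agent, and the mice lived in a light and dark cycle, with retinas collected in the light phase. Each library pooled retinas of several embryos or pups or of at least 3 older mice, by the study's methods, except at P60, where they give 4 of the 6 libraries as single mice and the other 2 as pools, without a statement of which were which. The sample labels differ from this in giving 3 per library for all samples, so whether the SDs at P60 are those of pools or of single mice is not settled. Embryos and P1 neonates were of mixed sexes and later samples were males, so sex and age cannot be told apart between any age up to P1 and any later one. This holds for P1 against P6 and for every comparison of embryonic with mature retina below.

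The sodium pump moves sodium out of a cell and potassium into it at the cost of ATP. Its β subunit, a glycosylated protein that crosses the membrane a single time, is needed for the catalytic α subunit to fold and reach the cell surface. In rods and cones in darkness, a current of sodium and calcium enters the outer segment through channels opened by cyclic GMP, and pumps in the inner segment expel the sodium, a loop known as the dark current. HCN channels open when the membrane hyperpolarizes and carry an inward current that shapes the response of photoreceptors and bipolar cells to light. The comparisons ask which of these subunits and channels was present at each age as that machinery formed.

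The deposited values were CPM, the reads of a feature scaled to the total of its library. Libraries held 7077781 to 11332323 reads (median 7969873), and 1 read was worth 0.0882 to 0.141 CPM. Over the libraries, Atp1b2 was represented by 431 to 8834 reads, Atp1b1 by 100 to 2073 and Atp1b3 by 200 to 658. The channel genes had fewer, with 62 to 307 reads for Hcn4, 46 to 167 for Hcn3 and 10 to 144 for Hcn2, so that counting error weighs most on Hcn2 in the embryo. The tissue label held against its markers, as rod genes (Nrl, Gnat1, Sag and Pde6b) summed to 13.5 to 17.5 CPM at E14 and 8974 to 10896 CPM at P60. Genes of dividing progenitors (Mki67, Top2a, Fgf15, Ccnd1 and Sfrp2) went from 5587 to 5824 CPM at E14 to 15.1 to 28.8 CPM at P60. Of tissues next to the retina, the summed markers of the pigment epithelium stayed at or under 49.4 CPM and those of the lens at or under 7.69 CPM in every library.

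In build GRCm38 with GENCODE annotation, Atp1b1 (Gene ID 11931) lies on chromosome 1 from 164437109 to 164458355 and Atp1b2 (11932) on chromosome 11 from 69599736 to 69605942, both on the minus strand. Atp1b3 (11933) lies on chromosome 9 from 96332655 to 96364442, also on the minus strand. Hcn2 (15166) spans 79716634 to 79736108 of chromosome 10 on the plus strand, Hcn3 (15168) spans 89146074 to 89160196 of chromosome 3 on the minus strand and Hcn4 (330953) spans 58823412 to 58863175 of chromosome 9 on the plus strand. The main transcripts have 6 exons in Atp1b1, 7 in Atp1b2 and Atp1b3, and 8 in each of the 3 channel genes. Exons of Atp1b1 share 575 bases, and those of Hcn3 share 711 bases, with genes on the opposite strand (Nme7 and Pklr). Whether reads were counted by strand is not given in the sources used here, so those shared bases could hold reads of either gene. Age means of Nme7 ran from 25.0 to 40.2 CPM and those of Pklr from 0.379 to 1.64 CPM, and their part in the results was not tested.

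RefSeq promoters of build GRCm38.p6 were matched for 4 of the 6 genes, Atp1b1, Atp1b3, Hcn2 and Hcn4. All 4 are shown, and none was matched for Atp1b2 and Hcn3. Over the ages described below, Atp1b1 and Hcn2 rose and Atp1b3 and Hcn4 fell. Each sequence holds the 250 bases before the RefSeq start site, written 5′ to 3′ on the strand of the gene. That site differs from the GENCODE start of the gene in Hcn4 (58822949 against 58823412) and in Atp1b3 (96364431 against 96364442). Capitals mark GGGCGG or its reverse complement CCGCCC, the letters bound by Sp1. The windows are chr1:164458356-164458605 (minus strand), chr9:96364432-96364681 (minus strand), chr10:79716384-79716633 (plus strand) and chr9:58822699-58822948 (plus strand).
Atp1b1: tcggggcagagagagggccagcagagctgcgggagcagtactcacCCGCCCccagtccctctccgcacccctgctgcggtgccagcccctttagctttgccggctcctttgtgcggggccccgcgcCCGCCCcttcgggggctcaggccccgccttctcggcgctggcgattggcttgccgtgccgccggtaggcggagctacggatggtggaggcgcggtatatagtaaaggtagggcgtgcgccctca
Atp1b3: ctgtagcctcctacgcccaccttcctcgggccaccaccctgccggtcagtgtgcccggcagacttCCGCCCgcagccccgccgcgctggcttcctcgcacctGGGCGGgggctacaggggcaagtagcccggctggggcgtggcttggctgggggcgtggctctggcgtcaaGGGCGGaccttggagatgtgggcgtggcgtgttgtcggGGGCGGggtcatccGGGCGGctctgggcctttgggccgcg
Hcn2: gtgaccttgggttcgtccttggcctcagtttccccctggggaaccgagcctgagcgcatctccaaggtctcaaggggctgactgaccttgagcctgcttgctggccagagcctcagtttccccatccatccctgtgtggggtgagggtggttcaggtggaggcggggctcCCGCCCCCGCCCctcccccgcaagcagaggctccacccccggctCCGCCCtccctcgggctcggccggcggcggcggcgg
Hcn4: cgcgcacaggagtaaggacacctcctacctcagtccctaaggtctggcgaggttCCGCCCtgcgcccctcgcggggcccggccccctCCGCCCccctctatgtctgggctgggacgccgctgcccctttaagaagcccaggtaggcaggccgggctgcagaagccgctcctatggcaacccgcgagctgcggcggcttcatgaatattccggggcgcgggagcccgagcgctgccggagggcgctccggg

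The 4 windows were rich in G and C, at 70.4% in Atp1b1, 73.6% in Atp1b3, 70.4% in Hcn2 and 71.2% in Hcn4, where the median of 32851 promoters was 52.4%. They held 16 to 25 CpG dinucleotides, against a median of 6. GGGCGG was found on either strand 2 times in Atp1b1, 5 times in Atp1b3, 3 times in Hcn2 and 2 times in Hcn4, and 32.7% of all promoters held it at least once. A start site of Atp1b3 further into the gene had a window of 76.8% G and C with no GGGCGG. The letters TAATCC (bound by CRX and OTX2), TGCTGA (part of the NRL site), the E-boxes CAGCTG and CAGATG, and TATAAA were not in these windows on either strand. They were in 6.25%, 16.1%, 13%, 14.4% and 12.4% of all promoters.

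The level of the pump's β subunit genes changed from an Atp1b3-rich to an Atp1b2-rich pattern between E14 and P6. To compare genes, CPM was divided by the length of each gene's exons (3.08 kb in Atp1b1, 4.09 kb in Atp1b2 and 2.39 kb in Atp1b3). At E14, Atp1b3 made up 64.1% ± 2.38 (SD, n = 3) of the summed CPM per kb of the 3 genes, Atp1b2 27.1% ± 2.10 and Atp1b1 8.88% ± 0.754. By P6, the shares were 4.59% ± 0.346 for Atp1b3, 82.6% ± 0.762 for Atp1b2 and 12.8% ± 0.490 for Atp1b1 (n = 3). Atp1b2 led from E17 on, at 49.5% ± 2.85 at E17 and 61.6% ± 2.14 at P1 (n = 4). The share of Atp1b1 was highest at P15, at 23.7% ± 0.998 (n = 4), and was 17.5% ± 1.41 at P60 (n = 6). Over the same ages the sum of the 3 genes went from 43.0 ± 2.29 CPM per kb at E14 to 262 ± 7.10 at P6 and 340.3 ± 14.2 at P15. Within each age the libraries of these 3 genes did not overlap on the per-kb scale, so all libraries of an age gave the same order. That order changed between E14 and E17 and again between P1 and P6, and it depends on the exon lengths used.

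**Figure D1:**
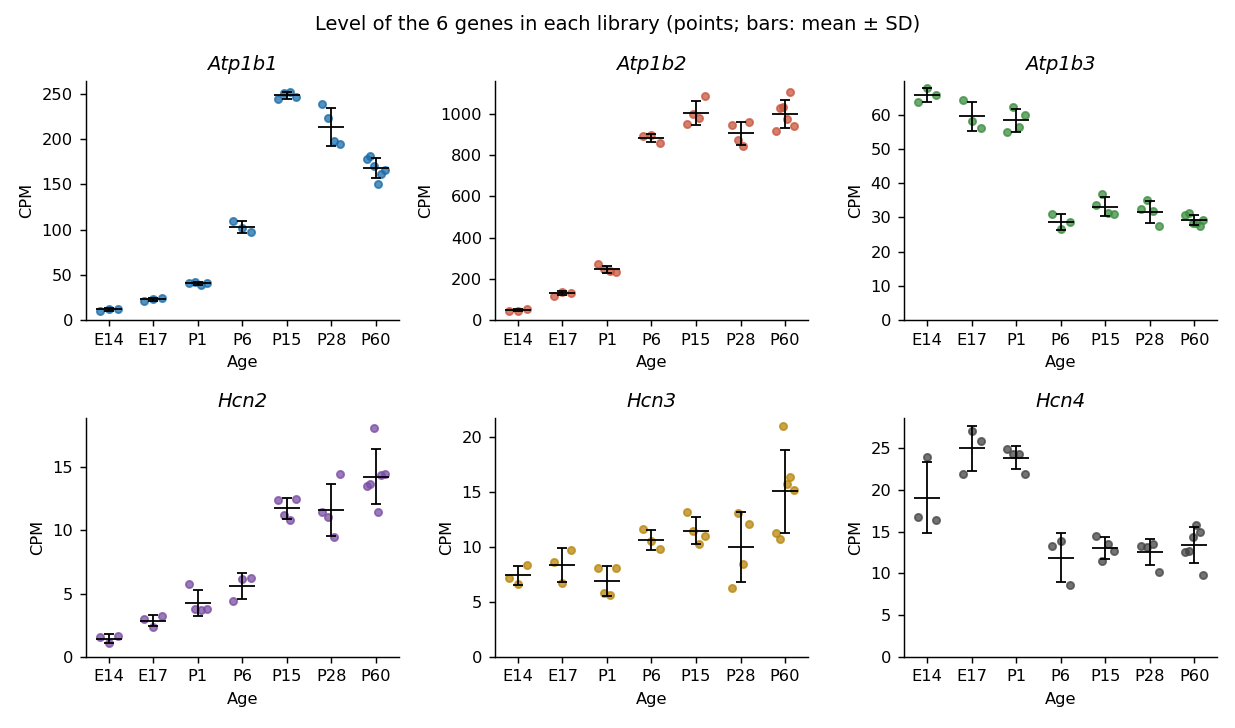
CPM (vertical axes, each starting at 0) of the 6 genes in each library (points) by age, with bars at the mean ± SD of 3 to 6 libraries. Atp1b1 climbs from E14 to P15 and Atp1b2 from E14 to P6, Atp1b3 and Hcn4 drop between P1 and P6, Hcn2 is higher from P15 on than before, and the P60 libraries of Hcn3 spread from 10.7 to 21.0 CPM.

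Atp1b2, the β subunit first described as an adhesion molecule of glia, had the highest CPM per kb of the 6 genes from E17 on. Its 3 libraries at E14 stood at 43.3, 45.5 and 54.1 CPM, those at E17 at 119, 137 and 133 CPM, and those at P1 at 269.8, 249, 237 and 231 CPM. At P6 they stood at 894, 898 and 859 CPM, at P15 at 951, 998, 978 and 1088 CPM, and at P28 at 946, 876, 842 and 959.6 CPM. At P60 the lowest of 6 was 916, the median 1002 and the highest 1107 CPM. Every library at P6 or later was above every earlier one, and the ages from P15 on overlapped. In limma, Atp1b2 rose by 1.43 ± 0.08 (SE) on the log2 scale from E14 to E17 (adjusted p = 1.7e-14), by 0.92 ± 0.08 to P1 (adjusted p = 1.9e-10) and by 1.84 ± 0.08 to P6 (adjusted p = 6.1e-19). The difference of P15 from P6 was 0.18 ± 0.08 (adjusted p = 0.067, limma), although the libraries did not overlap. It passed with median-of-ratios scaling (0.25, adjusted p = 0.035), in edgeR (0.25, adjusted p = 0.03), in a limma fit of these 2 ages alone (adjusted p = 0.02), without the P60 libraries (adjusted p = 0.031) and without E14 replicate 3 (adjusted p = 0.048).

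Atp1b1, the β subunit found with the pump in most tissues, rose later and then came down. Its libraries stood at 10, 12.7 and 12.7 CPM at E14, at 21.5, 23.0 and 24.6 CPM at E17 and at 41.1, 42.5, 38.3 and 40.9 CPM at P1. At P6 they stood at 110.1, 102 and 97.6 CPM, and at P15 at 244, 251, 252 and 247 CPM. At P28 they stood at 239, 223, 198 and 194 CPM, and at P60 the lowest was 151, the median 168 and the highest 181 CPM. No library of an age overlapped with those of a neighboring age, the P28 and P60 libraries lying below all P15 libraries. In limma, Atp1b1 rose by 0.92 ± 0.09 on the log2 scale to E17 (adjusted p = 7.6e-09), by 0.80 ± 0.09 to P1 (adjusted p = 6.5e-08), by 1.32 ± 0.09 to P6 (adjusted p = 6.8e-14) and by 1.26 ± 0.09 to P15 (adjusted p = 5.6e-13). From P28 to P60 it fell by 0.34 ± 0.07 (adjusted p = 0.0067, limma), a call that was lost in a fit of these 2 ages alone (adjusted p = 0.12). The difference of P28 from P15, -0.22 ± 0.08, did not pass (adjusted p = 0.17, limma).

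Atp1b3, a β subunit with wide expression in the body, fell between P1 and P6 and did not pass the test at any other step. Its libraries stood at 63.6, 67.7 and 65.9 CPM at E14, at 64.3, 58.1 and 56.2 CPM at E17 and at 54.9, 62.1, 56.4 and 60 CPM at P1. They stood at 31.1, 26.5 and 28.5 CPM at P6, and from P15 to P60 all 14 libraries lay between 27.4 and 36.9 CPM with a median of 31.0. All libraries up to P1 were above all libraries from P6 on, and neighboring ages other than P1 and P6 overlapped. In limma, Atp1b3 fell by 1.0 ± 0.09 on the log2 scale from P1 to P6 (adjusted p = 2.2e-10), and the other steps had adjusted p from 0.1 to 0.93. The step from P6 to P15, 0.20 ± 0.09, passed with median-of-ratios scaling (0.27, adjusted p = 0.025) and in edgeR (0.28, adjusted p = 0.031). The progenitor genes, which dropped from 4332 to 4725 CPM at P1 to 135 to 182 CPM at P6, moved with this fall, and their part in it was not tested. In whole tissue, fewer cells of a type and less RNA per cell cannot be told apart.

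Among the channel genes, Hcn4 had the highest mean per kb of exon up to P1 and the lowest from P15 on, while Hcn2 went from the lowest to the highest mean. Of the summed CPM per kb of Hcn2, Hcn3 and Hcn4 (3.20, 4.15 and 6.12 kb of exons), Hcn4 held 57.9% ± 8.10 at E14, 58.5% ± 5.88 at E17 and 56.8% ± 4.75 at P1. At P6 its share was 30.8% ± 5.47, and at P60 21.5% ± 3.59. The share of Hcn2 was 8.61% ± 2.56 at E14, 28.2% ± 6.24 at P6, 43.0% ± 1.74 at P15 and 43.7% ± 4.42 at P60, and that of Hcn3 stayed between means of 24.0% and 41.0%. These shares are among the 3 genes and not among all HCN channels. The sum of the 3 genes ran from 5.35 ± 0.446 CPM per kb at E14 to 10.3 ± 1.54 at P60, far below that of the β subunits. The order at P15 (Hcn2, Hcn3, Hcn4) had no overlap between neighbors, whereas at P28 and P60 the libraries of neighbors in that order overlapped.

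**Figure D2:**
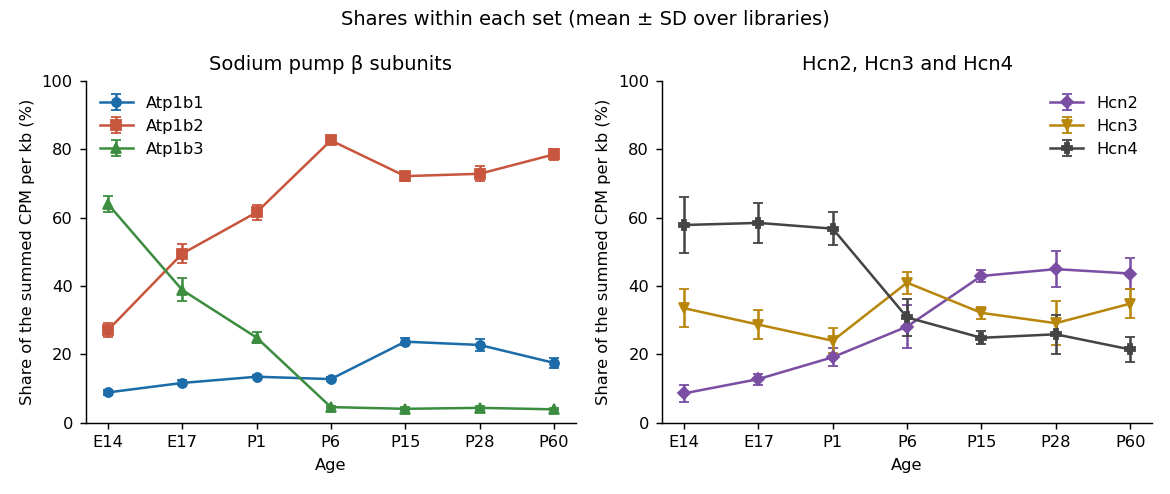
Share of each gene (vertical axis, percent of the summed CPM per kb of exon; points are means and bars ± SD over the 3 to 6 libraries of an age) among the β subunit genes (left) and among Hcn2, Hcn3 and Hcn4 (right). Atp1b3 and Atp1b2 cross between E14 and E17, and Hcn4 and Hcn2 cross between P6 and P15.

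Hcn2, an HCN channel that responds strongly to cyclic AMP and is known in bipolar cells, had the lowest CPM per kb of the 6 genes at E14. Its libraries stood at 1.60, 1.05 and 1.68 CPM at E14, at 2.96, 2.38 and 3.21 CPM at E17 and at 5.76, 3.78, 3.73 and 3.79 CPM at P1. They stood at 4.38, 6.16 and 6.20 CPM at P6, at 12.4, 11.2, 10.8 and 12.5 CPM at P15 and at 11.5, 11.1, 9.47 and 14.5 CPM at P28, and at P60 the lowest was 11.5, the median 14.0 and the highest 18.1 CPM. All libraries from P15 on were above all earlier ones, and the libraries of P1 and P6 overlapped. In limma, Hcn2 rose by 0.96 ± 0.18 on the log2 scale from P6 to P15 (adjusted p = 6.2e-05) and by 0.66 ± 0.19 from E14 to E17 (adjusted p = 0.018). The earlier rise lost its call without E14 replicate 2 (0.54, adjusted p = 0.13), E17 replicate 1 (0.64, adjusted p = 0.066) or E17 replicate 3 (0.59, adjusted p = 0.094), all by limma, and in edgeR without E14 replicate 1 (1.01, adjusted p = 0.057). The steps to P1 (0.44 ± 0.18, adjusted p = 0.13) and to P6 (0.33 ± 0.18, adjusted p = 0.15) did not pass in limma. Without P1 replicate 1 the step to P6 was 0.45 and just passed in limma, with an adjusted p that rounds to 0.05.

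Hcn4, the HCN channel best known as the pacemaker channel of the heart and also made by bipolar cells of the retina, was highest before birth and at P1. Its libraries stood at 16.8, 23.9 and 16.4 CPM at E14, at 21.9, 27.1 and 25.9 CPM at E17 and at 24.9, 24.3, 24.3 and 21.9 CPM at P1. They stood at 13.3, 13.8 and 8.55 CPM at P6, and the 14 libraries from P15 to P60 lay between 9.80 and 15.8 CPM with a median of 13.3. The lowest library up to P1 (16.4 CPM) was above the highest one from P6 on (15.8 CPM). In limma, Hcn4 fell by 0.97 ± 0.16 on the log2 scale from P1 to P6 (adjusted p = 1e-05), the same step at which Atp1b3 fell. The difference of E17 from E14, 0.39 ± 0.17, did not pass in the fit of all ages (adjusted p = 0.18, limma) and passed in a fit of these 2 ages alone (adjusted p = 0.011).

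Hcn3, an HCN channel that responds little to cyclic AMP, had the smallest difference in size between embryonic and mature retina of the 6 genes. Its libraries stood at 7.20, 6.65 and 8.31 CPM at E14, at 8.59, 6.71 and 9.73 CPM at E17 and at 8.09, 5.80, 5.65 and 8.04 CPM at P1. They stood at 11.6, 10.5 and 9.79 CPM at P6, at 13.1, 11.5, 10.2 and 11.0 CPM at P15, at 6.26, 13.1, 8.39 and 12.1 CPM at P28 and at 11.3, 10.7, 21.0, 15.7, 16.3 and 15.2 CPM at P60. Libraries of P1 and P6 did not overlap, while those of P28 spread over the range of most other ages. In limma, Hcn3 rose by 0.57 ± 0.21 on the log2 scale from P1 to P6 (adjusted p = 0.027), and the call was lost without P1 replicate 2 (0.50, adjusted p = 0.077), P1 replicate 3 (0.49, adjusted p = 0.083), P6 replicate 1 (0.51, adjusted p = 0.1) or P6 replicate 2 (0.58, adjusted p = 0.061). It also rose by 0.57 ± 0.17 from P28 to P60 (adjusted p = 0.033, limma). That call was lost with the replicate number as a block (0.52, adjusted p = 0.12), in a fit of these 2 ages alone (adjusted p = 0.2), and without P28 replicate 1 (0.39, adjusted p = 0.17), P28 replicate 3 (0.51, adjusted p = 0.095), P60 replicate 3 (0.47, adjusted p = 0.081), P60 replicate 4 (0.55, adjusted p = 0.064) or P60 replicate 5 (0.54, adjusted p = 0.068).

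By step, 3 of the 6 genes rose from E14 to E17 by limma with Benjamini-Hochberg adjustment, where 10.6% of all features tested differed and 7.56% rose. From E17 to P1, 2 genes rose, where 9.21% of features differed and 5.77% rose. From P1 to P6, 5 genes differed, 3 higher and 2 lower, where 38.3% of features differed, 18% higher and 20.4% lower. From P6 to P15, 2 genes rose by limma, where 33.4% of features differed and 14.4% rose, and 4 rose by edgeR, which added Atp1b2 and Atp1b3. From P15 to P28 none of the 6 genes differed by limma or edgeR at an adjusted p under 0.05, with 2.72% of features differing, and at an unadjusted p under 0.05 there were 2 by limma (Atp1b1 and Atp1b2) and 1 by edgeR. From P28 to P60, Hcn3 rose and Atp1b1 fell (12.9% of features differed, 4.8% higher and 8.11% lower). In a limma fit of these 2 ages alone neither gene passed, and only 23 of 28828 features did. All 6 genes differed somewhere among the 7 ages (adjusted p from 2.2e-31 for Atp1b2 to 8.1e-05 for Hcn3, limma's F test), as did 83% of all features.

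**Figure D3:**
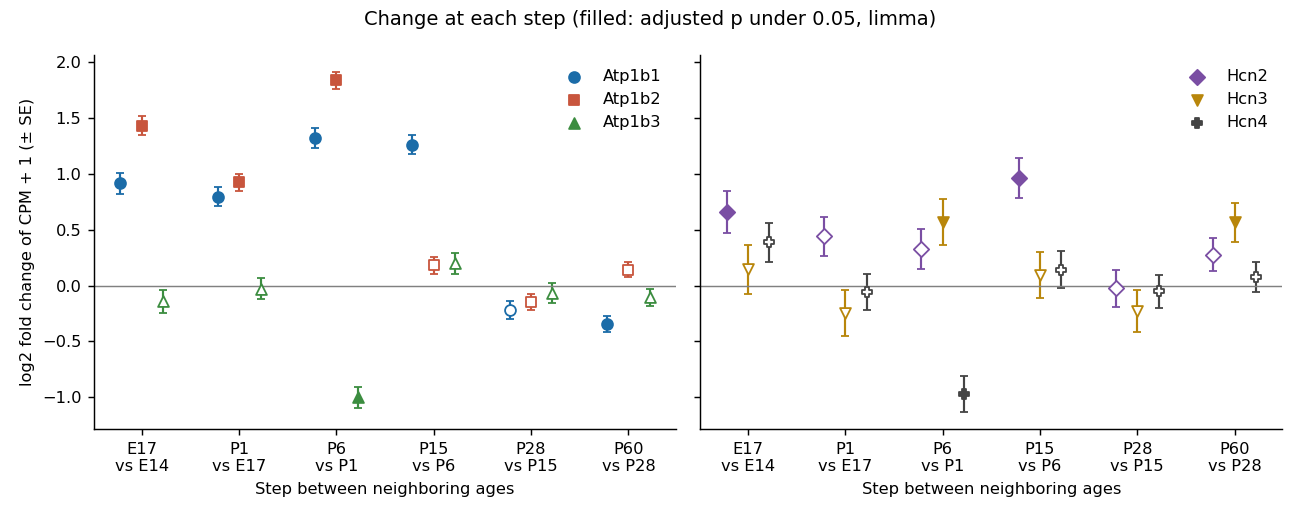
Log2 fold change of CPM + 1 from limma (vertical axis, ± SE) at each of the 6 steps between neighboring ages (horizontal axis) for the β subunit genes (left) and the channel genes (right), with filled symbols at an adjusted p under 0.05. From P1 to P6, Atp1b1, Atp1b2 and Hcn3 are filled above 0 and Atp1b3 and Hcn4 are filled below 0, near -1.

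Between the embryonic ages (E14 and E17, 6 libraries) and the mature ages (P15, P28 and P60, 14 libraries), all 6 genes differed by limma, where 75.4% of the 31760 features tested did. Of these, 4 genes were higher and 2 lower in the mature retina, against 35% and 40.4% of all features. At an added log2 fold change of at least 1 in size, 3 genes were higher and none lower, against 14.9% and 16.1% of features. The change was 3.61 ± 0.05 on the log2 scale for Atp1b2 (adjusted p = 3.4e-33), 3.57 ± 0.06 for Atp1b1 (adjusted p = 1.6e-31) and 2.13 ± 0.11 for Hcn2 (adjusted p = 2.5e-17). Hcn3 was higher by 0.53 ± 0.13 (adjusted p = 0.00061), and Atp1b3 fell by 0.98 ± 0.06 (adjusted p = 1.3e-15) and Hcn4 fell by 0.70 ± 0.10 (adjusted p = 3.8e-07). In mean CPM, Atp1b1 was 11.7 times, Atp1b2 11.0 times and Hcn2 5.95 times as high in the mature libraries, and Atp1b3 was 0.496 times and Hcn4 0.592 times as high. Embryonic and mature levels had no overlap in 5 of the genes and overlapped in Hcn3. The share of all features without overlap was not computed, so this count does not set these genes apart from other features. Of all features, 1.27% had a higher log2 fold change than Atp1b2, 1.3% than Atp1b1 and 4.6% than Hcn2, while 16.6% had a lower change than Atp1b3 and 23.7% than Hcn4. The median change of all features was -0.06.

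**Figure D4:**
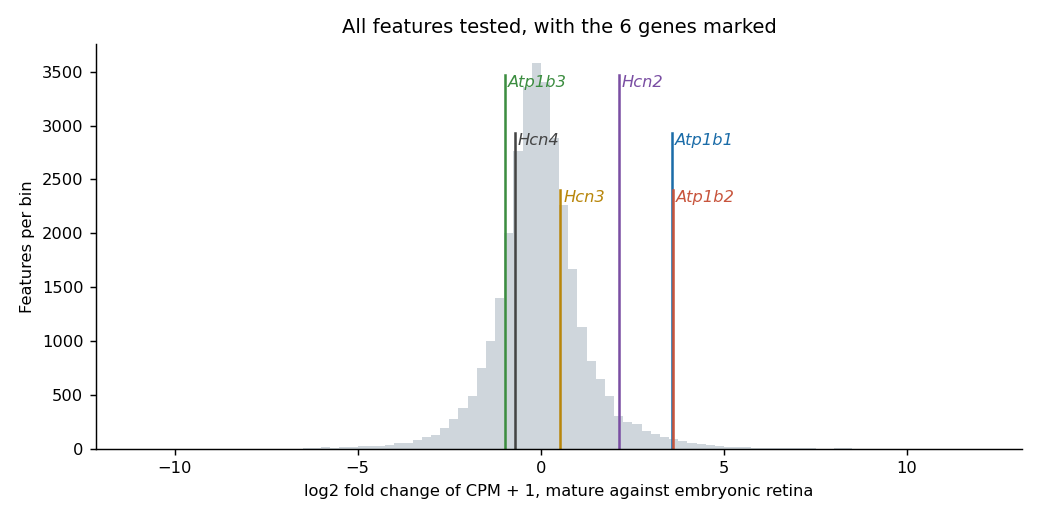
Number of features (vertical axis) in bins of the log2 fold change of CPM + 1, mature against embryonic retina (horizontal axis), for all 31760 features tested, with lines at the 6 genes. Atp1b1, Atp1b2 and Hcn2 lie in the right tail at 3.57, 3.61 and 2.13, and Hcn3, Hcn4 and Atp1b3 lie within the bulk between 0.53 and -0.98.

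Genes were also compared with each other within a library. For 6 pairs, the log2 ratio of CPM + 1 was compared between the 6 embryonic and the 14 mature libraries by two-sided exact permutation tests with Benjamini-Hochberg adjustment over the 6, for which 5.2e-05 was the smallest p that the 38760 assignments allow. The ratio of Atp1b2 to Atp1b3 went from 0.32 ± 0.88 (SD, n = 6) to 4.93 ± 0.19 (n = 14, exact p = 5.2e-05, adjusted p = 7.7e-05). That of Atp1b3 to Atp1b1 went from 1.86 ± 0.60 to -2.66 ± 0.19 (same exact p and adjusted p). In both ratios no embryonic library overlapped with a mature one. The embryonic SDs hold the change from E14 to E17 besides the spread within an age, and the test treats libraries of different ages as exchangeable. Atp1b2 to Atp1b3 stood at -0.46 ± 0.16 at E14 and 1.11 ± 0.20 at E17 (n = 3 each). Atp1b3 to Atp1b1 stood at 2.39 ± 0.14 at E14 and 1.33 ± 0.19 at E17. The ratio of Atp1b2 to Atp1b1, the pair that rose most, was 2.18 ± 0.30 in embryonic and 2.27 ± 0.30 in mature libraries, a difference of 0.08 (exact p = 0.57, adjusted p = 0.57) with overlap. This ratio was not flat over the ages, with means of 1.93 at E14, 3.09 at P6, 2.01 at P15 and 2.57 at P60, and without P60 the difference between mature and embryonic libraries was -0.14.

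Among the channels, the ratio of Hcn4 to Hcn2 went from 2.89 ± 0.39 (SD, n = 6) in embryonic to 0.03 ± 0.31 (n = 14) in mature libraries on the log2 scale. The ratio of Hcn2 to Hcn3 went from -1.53 ± 0.29 to 0.06 ± 0.30. Both had an exact permutation p of 5.2e-05 (adjusted p = 7.7e-05), with no overlap between the groups. The ratio of Hcn4 to Hcn3 went from 1.36 ± 0.36 to 0.09 ± 0.41 (exact p = 0.0001, adjusted p = 0.00012), with overlap. The added 1 CPM weighs on genes this low, and with 0.1 in its place the differences between mature and embryonic libraries were -3.33 in place of -2.86 for Hcn4 to Hcn2, 1.97 in place of 1.58 for Hcn2 to Hcn3 and -1.36 in place of -1.27 for Hcn4 to Hcn3. With 1 CPM added, the ratio of Hcn4 to Hcn3 stood at 1.67 ± 0.29 at P1 (n = 4) and 0.13 ± 0.28 at P6 (n = 3), without overlap between these ages.

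**Figure D5:**
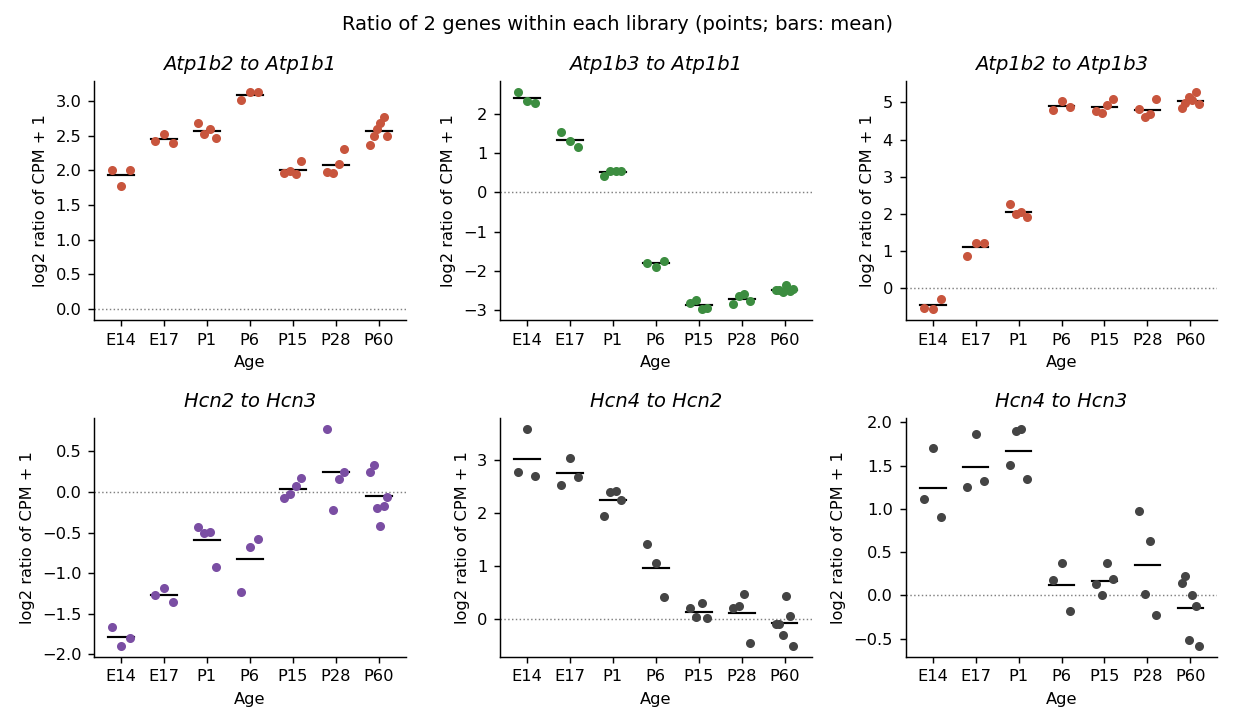
Log2 ratio of CPM + 1 of 2 genes within each library (points; vertical axes in log2 units) by age, with bars at the mean of an age and a dotted line at 0. The ratio of Atp1b2 to Atp1b3 climbs until P6 and stays between 4.61 and 5.28, that of Atp1b2 to Atp1b1 peaks at P6, and those of Hcn4 to Hcn2 and Hcn4 to Hcn3 come down to near 0.

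Other genes of the pump and of the channels were followed as lists. These lists and those of the next paragraph were chosen with earlier results of these data known, so their counts are a description only. In mature against embryonic retina, 35% of all features tested were higher and 40.4% lower by limma. Of 12 other pump genes (catalytic α subunits, a further β subunit and the FXYD regulators, small membrane proteins that tune the pump), 10 passed the filter, and 8 were higher and 1 lower in mature than in embryonic retina by limma, with a median log2 fold change of 0.56. The gene that fell was Fxyd6, at 34.7 ± 3.16 CPM at E14 and 14.6 ± 4.42 at P60 (log2 fold change -1.34 ± 0.12, adjusted p = 9.5e-12, limma). It fell from 32.0 ± 2.47 CPM at P1 to 8.32 ± 0.559 at P6 (adjusted p = 1.2e-09, limma), the step at which Atp1b3 and Hcn4 fell. Of 4 tested genes whose products join or traffic HCN channels, 3 were higher and 1 lower, with a median of 2.41. Pex5l, which encodes the HCN trafficking protein TRIP8b, stood at 23.3 ± 0.660 CPM at E14, 228 ± 23.6 at P6 and 494 ± 15.2 at P60 (log2 fold change 4.48 ± 0.05, adjusted p = 9.5e-36, limma). Kcne2, a small channel subunit, went from 0.172 ± 0.0579 CPM at E14 to 24.5 ± 3.36 at P60 (4.70 ± 0.12, adjusted p = 2.8e-26, limma).

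All 8 genes of a dark current list were higher in mature retina by limma, with a median log2 fold change of 6.77. From P1 to P6, 6 of them rose (median 2.91). Of all features tested, 35% were higher in mature than in embryonic retina and 18% rose from P1 to P6. The list did not move as a block. By limma, 5 of its genes already rose from E14 to E17, where 7.56% of all features did. From P6 to P15, 6 of its genes rose and 1 fell. Cnga1 and Slc24a1, given next, are rod genes and do not speak for the whole list. Cnga1, the rod channel subunit opened by cyclic GMP, stood at 2.05 ± 0.533 CPM at P1, 172 ± 26.3 at P6 and 524 ± 18.0 at P15. Slc24a1, the rod exchanger that removes calcium in trade for sodium, stood at 5.58 ± 1.08, 40.2 ± 13.0 and 954 ± 199 CPM at these ages. Atp1b2 itself stood at 247 ± 17.1, 884 ± 21.5 and 1004 ± 59.6 CPM, and its mean at P15 was 1.14 times that at P6. Of 9 genes for the supply and breakdown of cyclic GMP in photoreceptors, all 9 were higher in mature retina (median 7.46) and all 9 rose from P1 to P6 (median 3.62). The rod genes Nrl, Gnat1, Sag and Pde6b summed to 97.7 to 106 CPM at P1, 1508 to 1823 at P6 and 7029 to 7456 at P15, and their part in the rise of Atp1b1, Atp1b2 and Hcn2 was not tested. Bipolar cell markers moved over the same ages. From P1 to P6, 6 of 6 markers of ON and rod bipolar cells (median log2 fold change 1.92) and 4 of 4 of OFF bipolar cells (median 3.56) rose by limma, against 18% of all features tested. Summed, the ON and rod bipolar markers went from 405 to 468 CPM at P1 to 1115 to 1415 at P6 and 1708 to 1797 at P15, and those of OFF bipolar cells from 10.7 to 14.9 CPM to 162 to 189 and 263 to 275. None of these markers was at 0 in every library. Hcn4 fell from P1 to P6, where these markers rose, and Hcn2 passed the test from P6 to P15, where 3 of the 6 ON and rod bipolar markers rose and 2 fell. From P6 to P15, 33.4% of all features tested differed and 14.4% rose. The part of bipolar cells in the values of Hcn2 and Hcn4 was not tested.

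By Pearson r of log2(CPM + 1) over the 27 libraries, among 12721 other genes, those most like each of the 6 were named as a description, since libraries of an age share that age. Those nearest Atp1b2 were Gm38717 (r = 0.997), Rasgrf2 (0.996) and Rp1 (0.995), the last an outer segment gene of photoreceptors. Those nearest Atp1b1 were Gm10862 (r = 0.994), Nxph1 (0.993) and Ppp3cc (0.993). Those nearest Atp1b3 were the cell division and DNA repair genes Cenpa (r = 0.977), Fancd2 (0.976) and Gtse1 (0.976). Of these, Cenpa went from a mean of 95.1 CPM at E14 to 4.86 at P60 and Gtse1 from 22.1 to 0.121 CPM, while Atp1b3 went from 65.7 to 29.3 CPM. Those nearest Hcn2 were Kcnc1 (r = 0.978), a potassium channel gene, Atp2b2 (0.977), a calcium pump gene, and Diras2 (0.977). For Hcn4 the closest were Rab11fip4 (r = 0.901), Sema4d (0.892) and Ska1 (0.889), and for Hcn3 Zfp446 (0.876), Ggt7 (0.872) and Dnase2a (0.872), lower values than for the other 4 genes.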

How the data were processed

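Total RNA of pooled retinas was made into libraries by the authors with a SMARTer total RNA kit, sequenced as single-end reads (Illumina HiSeq) and aligned to GRCm38 (mm10) by STAR. They deposited CPM values per annotated feature, the only unit used here. The annotation and the strand setting of the counting are not given in the sources used here. Within 0.1 reads, 100% of the values were whole numbers of reads, although in E14 replicate 1 the step of 1 read lies too near a round decimal for an automatic test. Read totals below refer to these recovered reads, and they speak to counting error only.

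The analysis took log2(CPM + 1), which understates the change of low genes, for the 31760 features that reached 1 CPM in 3 or more libraries. Limma, with a mean-variance trend and age as the only factor, was run on the 27 libraries together. P-values were two-sided, were adjusted by Benjamini-Hochberg over the features tested, and measure the spread between libraries of an age. A gene differed at an adjusted p under 0.05. Mature means the mean of P15, P28 and P60, and embryonic that of E14 and E17. Ratios of genes were tested by exact permutation. Versions were limma 3.58.1 and edgeR 4.0.16 under R 4.3.3, and matplotlib 3.10.9, pandas 2.3.3, numpy 2.4.6 and scipy 1.17.1 under Python 3.11.15. The fits were tested on simulated data.

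Named are the 6 members, genes of the pump, channel, dark current and cyclic GMP lists and, for each member, the 3 genes of highest correlation among those with an age mean of at least 10 CPM. Some genes of the lists are not reported here, or are counted and not reported singly. Members and lists were chosen with earlier results of these data known. Groups and replicate numbers follow the sample titles. As alternatives, the pseudocount was set to 0.1, the low filter was dropped or set to a mean of 10 CPM, values were scaled by median of ratios, the replicate number entered as a block, edgeR was run on the recovered reads, the fit was kept to the ages compared, entries of a symbol were summed, and P60 or each library in turn was left out. EdgeR without E14 replicate 1 was added after the data were seen. Promoters came from RefSeq, and proteins were not used here.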

Additional observations from a re-analysis of the deposited data

Results flagged for a closer look

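Of 24 groups of 4 to 6 libraries, 1 for each of the 6 genes at P1, P15, P28 and P60, 2 held a library far from the others by Dixon's test, where chance flags about 1 in 20. Hcn2 at P1 stood at 5.76 CPM in replicate 1 and at 3.73 to 3.79 CPM in the other 3 libraries. Without that library, the step of Hcn2 from P1 to P6 was 0.45 on the log2 scale and just passed by limma, with an adjusted p that rounds to 0.05. With it, the step was 0.33 with an adjusted p of 0.15. Hcn4 at P28 stood at 10.2 CPM in replicate 4 and at 13.2 to 13.5 CPM in the other 3. Without that library, the log2 differences of Hcn4 were 0.04 for P28 against P15 and -0.01 for P60 against P28, in place of -0.05 and 0.08 with it, and neither passed limma's threshold in any of these fits. The cause of these values was not tested.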

How the results depend on the processing

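Under every alternative that tested them, the 6 genes kept their direction between mature and embryonic retina with an adjusted p under 0.05, with log2 fold changes from 3.52 to 3.75 for Atp1b1, 3.57 to 3.73 for Atp1b2, -1.0 to -0.90 for Atp1b3, 2.05 to 2.75 for Hcn2, 0.38 to 0.71 for Hcn3 and -0.75 to -0.62 for Hcn4. Hcn2 was not tested at a mean CPM of at least 10. From P6 to P15, the count of genes that differed was 2, and it was 1 at a mean CPM of at least 10 (5 tested), 4 with median-of-ratios scaling, 4 in edgeR and 4 in edgeR without E14 replicate 1. From P28 to P60 it was 2, and it was 1 with the replicate block and 0 in a fit of these ages only. Calls over all features fell too at this step, so the loss was not particular to these genes. They numbered 4100 of 31760 in the main fit, 1029 of 31760 with the block and 23 of 28828 in the fit of these ages only. Leaving out each library in turn gave counts of 1 to 2 for that step, with 1 without P28 replicate 1 or 3 or P60 replicate 3, 4 or 5. It gave 2 to 3 from E14 to E17, 4 to 6 from P1 to P6 and 2 to 3 from P6 to P15. Same-numbered libraries of neighboring ages did not deviate together over the features tested (20 pairs, r from -0.10 to 0.09). The deviations were taken from means of only 3 to 6 libraries, so these values cannot exclude a shared batch. The replicate block changed no call other than that of Hcn3 from P28 to P60 (0.52, adjusted p = 0.12, limma).

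The difference of the Atp1b2 to Atp1b1 ratio was -0.14 without P60, and 0.00026 to 0.15 with 1 library left out. Steps with no call changed sign in some fits. In edgeR the step of Hcn2 from P15 to P28 was 0.0059 with or without E14 replicate 1, and from -0.13 to 0.059 in limma with 1 library left out. Leaving out 1 library gave -0.067 to 0.029 for Atp1b3 and -0.15 to 0.0015 for Hcn4 at P1 against E17. For Hcn4 the later steps ran from -0.059 to 0.26 (P6 to P15), -0.11 to 0.039 (P15 to P28) and -0.014 to 0.16 (P28 to P60). Apart from calls named as lost by a change of samples or of the number of features tested, the cause of these differences was not tested. Depth limits Hcn2 most, with 10 to 16 reads per library at E14, and the CPM scale cannot show a change in total RNA per retina.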
